A study of Rattus norvegicus with 10 samples.

Results

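The aryl hydrocarbon receptor (AhR), its dimer partner, its repressors and its classic target genes were followed in the livers of rats fed an ultraviolet filter. The set held 10 genes: Ahr, Arnt, Ahrr, Tiparp, Cyp1a1, Cyp1a2, Cyp1b1, Nqo1, Aldh3a1 and Cyp2s1. Every probe set that the platform annotation names with one of these symbols was taken, which gave 12 of the 31042 probe sets tested, with 2 each for Ahr and Tiparp and 1 for each other gene. The HMB group was 5 Harlan Sprague Dawley rats whose diet held 2-hydroxy-4-methoxybenzophenone (HMB, also called oxybenzone) at 10000 ppm for 13 weeks, and the control group was 5 rats of the same strain on the same NTP-2000 diet without it. Each liver was measured on 1 Affymetrix Rat Genome 230 2.0 array, an expression array with a biotin label. HMB replicate 1 carries an HMB title and chemical label but a dose label of 0 ppm, and it was kept in the HMB group. Age and sex were not given in the sources used here. Housing was 5 rats per cage, so that cage and diet cannot be told apart if each group was 1 cage. All values are log2 signals per probe set, in which a step of 1 is a doubling, and every difference is HMB minus control.

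AhR is a transcription factor of the bHLH-PAS family that waits in the cytosol with Hsp90 and its co-chaperones. Planar aromatic ligands such as dioxins send it to the nucleus, where it pairs with Arnt and binds the xenobiotic response element, whose core is GCGTG. In liver this induces monooxygenases of the Cyp1 family together with oxidoreductases such as Nqo1 and Aldh3a1. Ahrr, which competes for Arnt, and Tiparp, an ADP-ribosyltransferase that modifies AhR, are induced as well and restrain the receptor.

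Cyp1a1 was higher and Tiparp lower in HMB livers, and no other gene of the set passed the test. In most fits that leave out 1 animal, given below, these genes no longer passed it. Cyp1a1, a dim probe set, stood 0.92 above the control livers on the log2 scale. Both Tiparp probe sets were called, at 0.684-fold and 0.619-fold of the control level. Cyp1a2 was 1.36-fold of control with no overlap between groups and an adjusted p of 0.0523, just outside the threshold of 0.05 (limma, Benjamini-Hochberg adjustment over 31042 probe sets). Of the 12 probe sets, 3 were called, where 1.70% of all probe sets were. Of them 1 was called higher, where 0.705% of all probe sets were, and 2 were called lower, where 0.995% of all were. The groups did not overlap in 2 probe sets with HMB above, against 2.84% of all probe sets, and in 2 with HMB below, against 2.93%. Because these are bulk liver samples, fewer cells of a type and less RNA per cell cannot be told apart.

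The promoters of 4 genes are shown for a repressor that was called and for targets that were not: Tiparp was called lower, Cyp1a2 lay just outside the threshold, and Cyp1b1 and Ahrr, though AhR targets, were not called. Cyp1a1 and Aldh3a1 had no entry in the promoter table used. The windows are RefSeq sequences of GRCr8, from 250 bases before to 50 after the start of transcription. Capitals mark the core GCGTG on either strand, which reads CACGC on the other one. The window of Tiparp is chr2:152063519-152063818 on the plus strand, that of Ahrr chr1:30821969-30822268 on the plus strand, that of Cyp1b1 chr6:21094315-21094614 on the plus strand, and that of Cyp1a2 chr8:66978100-66978399 on the minus strand.
Tiparp: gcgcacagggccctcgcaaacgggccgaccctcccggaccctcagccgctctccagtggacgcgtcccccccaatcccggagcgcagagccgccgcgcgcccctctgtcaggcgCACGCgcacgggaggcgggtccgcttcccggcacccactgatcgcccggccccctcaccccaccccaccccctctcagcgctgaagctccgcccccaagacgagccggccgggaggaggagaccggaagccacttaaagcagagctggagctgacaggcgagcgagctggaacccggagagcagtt
Ahrr: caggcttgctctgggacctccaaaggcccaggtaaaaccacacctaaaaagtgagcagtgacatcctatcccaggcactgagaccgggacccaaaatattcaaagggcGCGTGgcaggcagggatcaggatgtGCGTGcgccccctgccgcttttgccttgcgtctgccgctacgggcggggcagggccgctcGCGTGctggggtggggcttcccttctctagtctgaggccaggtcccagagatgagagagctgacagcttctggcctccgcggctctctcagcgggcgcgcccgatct
Cyp1b1: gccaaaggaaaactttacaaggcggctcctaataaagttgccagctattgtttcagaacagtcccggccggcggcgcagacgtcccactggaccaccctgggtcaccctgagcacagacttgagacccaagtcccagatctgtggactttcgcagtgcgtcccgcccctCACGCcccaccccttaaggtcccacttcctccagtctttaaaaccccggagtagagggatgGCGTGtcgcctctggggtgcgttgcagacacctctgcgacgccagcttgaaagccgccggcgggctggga
Cyp1a2: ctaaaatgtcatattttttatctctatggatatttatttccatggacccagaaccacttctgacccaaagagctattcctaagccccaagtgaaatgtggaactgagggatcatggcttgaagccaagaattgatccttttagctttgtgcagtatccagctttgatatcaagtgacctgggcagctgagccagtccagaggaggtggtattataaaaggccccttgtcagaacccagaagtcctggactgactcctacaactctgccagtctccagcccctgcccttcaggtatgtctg

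The core occurred 3 times in the Ahrr window, 2 times in Cyp1b1 and 1 time in Tiparp, and these letters were not in the Cyp1a2 window. Of the 8 genes with a promoter in the RefSeq table, 5 held at least 1 core, the other two of them being Arnt and Nqo1 with 1 each. Among 33469 rat promoters of the same length, 29.7% held at least 1 core, 10.2% at least 2 and 3.59% at least 3. The longer motif TNGCGTG, which contains the core, occurred in Ahrr and Cyp1b1, and in 4.89% of all promoters. The core is also contained in one form of the hypoxia response element, ACGTG or GCGTG, which Arnt binds with other partners. G and C made up 72.7% of the Tiparp window, 63.3% of Ahrr, 60.7% of Cyp1b1 and 46.3% of Cyp1a2, where the median of all promoters was 51.7%. A match of letters is a description of the sequence and shows no binding.

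Cyp1a1 encodes the monooxygenase that is the usual gauge of AhR activation and is little expressed in untreated liver. Its log2 signal was 4.89, 4.28, 4.16, 4.06 and 4.48 in HMB replicates 1 to 5, against 3.91, 3.00, 3.23, 3.76 and 3.36 in control replicates 1 to 5. All HMB livers lay above all controls. The highest value was that of HMB 1, the animal with the 0 ppm dose label, and the lowest HMB value stood 0.15 above the highest control. The difference was 0.92 ± 0.19 (SE, n = 5 per group, 95% interval 0.52 to 1.33, limma adjusted p = 0.038). It was 0.82 after cyclic loess normalization, a scaling that removes intensity-dependent differences between arrays (limma adjusted p = 0.0664).

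Cyp1a2 encodes the constitutive hepatic member of the family, a pericentral enzyme that oxidises aromatic amines and caffeine. It was bright on every array. The HMB livers had log2 signals of 12.46, 12.39, 12.43, 12.51 and 12.55, against 12.04, 11.95, 12.01, 12.39 and 11.76 in control livers. The HMB values lay close together (SD 0.0646, n = 5), while the controls were more spread (SD 0.229, n = 5) and control 4 came within 0.0026 of the lowest HMB liver. The difference was 0.44 ± 0.10 (SE, n = 5 per group, 95% interval 0.22 to 0.67). Cyclic loess left it at 0.45 (limma adjusted p = 0.0734), and 5 of its 22 other settings gave an adjusted p under 0.05, with a range from 0.0292 to 0.427.

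Cyp1b1, a monooxygenase of steroids and polycyclic hydrocarbons found mostly outside hepatocytes, was dim. Log2 signals ran from 3.50 to 3.78 in HMB livers, against 3.34 to 3.60 in controls. In 4 of 5 HMB livers the value exceeded that of every control, control 3 being the highest of its group. The difference was 0.24 ± 0.08 (SE, n = 5 per group; by limma, adjusted p = 0.115), and 0.14 after cyclic loess.

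**Figure D1:**
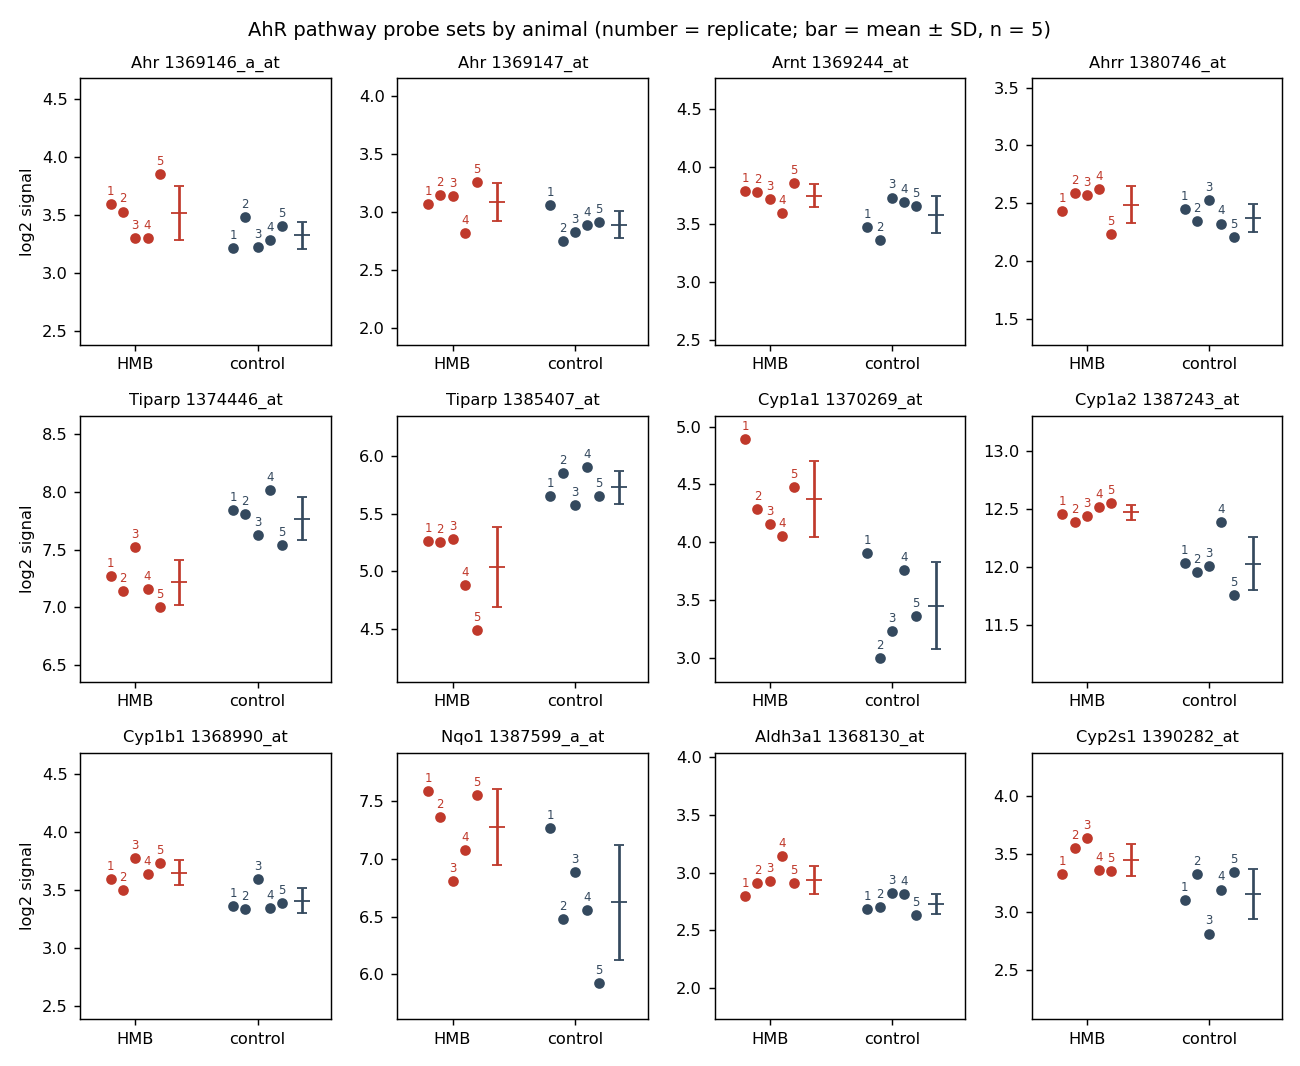
Log2 signal of each of the 12 probe sets (vertical axes, all spanning the same range) in the 5 HMB livers, left, and the 5 control livers, right. Numbers are replicates and bars are mean ± SD; HMB lies wholly above control for Cyp1a1 and Cyp1a2 and wholly below it for both Tiparp probe sets.

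Tiparp went the other way from Cyp1a1. Its brighter probe set, 1374446_at, had log2 signals of 7.27, 7.14, 7.52, 7.16 and 7.00 in HMB replicates 1 to 5, against 7.85, 7.81, 7.62, 8.01 and 7.54 in controls. HMB 3 came closest to the controls, 0.02 below the lowest of them. The difference was -0.55 ± 0.11 (SE, n = 5 per group, 95% interval -0.79 to -0.30, limma adjusted p = 0.0416).

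The dimmer Tiparp probe set, 1385407_at, had 5.26, 5.26, 5.28, 4.88 and 4.49 in HMB livers, against 5.65, 5.85, 5.58, 5.90 and 5.65 in controls. The groups were clearly apart here, and HMB 4 and HMB 5 lay below the other three HMB livers. The difference was -0.69 ± 0.15 (SE, n = 5 per group, 95% interval -1.01 to -0.38, limma adjusted p = 0.042). After cyclic loess the differences of the brighter and the dimmer probe set were -0.43 (adjusted p = 0.11) and -0.65 (adjusted p = 0.0635).

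Ahrr, the other repressor, was measured near the bottom of the signal range. Its log2 signals were 2.43, 2.59, 2.57, 2.62 and 2.23 in HMB livers, against 2.45, 2.35, 2.53, 2.33 and 2.21 in controls. The groups overlapped, although 3 of 5 HMB livers lay above every control. The difference was 0.12 ± 0.10 (SE, n = 5 per group, 95% interval -0.09 to 0.32, limma adjusted p = 0.466), so that the data do not separate no change from a rise of 0.32 on the log2 scale. After cyclic loess it was 0.03, and it was 0.07 without control 5 and 0.18 without HMB 5. No detection calls were used here, so a dim probe set may hold little but background.

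Nqo1, a quinone reductase shared between AhR and NRF2, had the second largest positive difference and the widest spread between animals of the 12 probe sets. Its log2 signals were 7.58, 7.36, 6.80, 7.07 and 7.55 in HMB livers, against 7.26, 6.48, 6.89, 6.55 and 5.93 in controls. The groups overlapped, with HMB 3 low among the HMB livers and control 1 high among the controls. HMB 1 was again the highest of all 10 livers. The difference was 0.65 ± 0.22 (SE, n = 5 per group, 95% interval 0.18 to 1.13, limma adjusted p = 0.112), and over the 10 fits that leave out 1 animal it ran from 0.48 without control 5 (adjusted p = 0.193) to 0.81 without control 1 (adjusted p = 0.0416), the only one of these fits in which it was called.

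Aldh3a1, an aldehyde dehydrogenase that responds strongly to dioxin in rat liver, and Cyp2s1, a P450 inducible through AhR, were both dim. Aldh3a1 had log2 signals from 2.80 to 3.14 in HMB livers, against 2.63 to 2.82 in controls. It differed by 0.21 ± 0.08 (SE, n = 5 per group; by limma, adjusted p = 0.157). Cyp2s1 ran from 3.32 to 3.64 in HMB livers, against 2.81 to 3.35 in controls, and differed by 0.29 ± 0.11 (SE, n = 5 per group; by limma, adjusted p = 0.142). For each of them 4 of 5 HMB livers lay above every control, and neither passed the test. After cyclic loess the differences were 0.11 for Aldh3a1 (limma adjusted p = 0.521) and 0.18 for Cyp2s1 (adjusted p = 0.418).

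The receptor and its partner were not called. Ahr had 2 dim probe sets, with differences of 0.19 ± 0.11 for 1369146_a_at and 0.20 ± 0.09 for 1369147_at (SE, n = 5 per group); the limma adjusted p was 0.303 for the one and 0.218 for the other. Their 95% intervals were -0.05 to 0.43 and -0.01 to 0.40. After cyclic loess the differences were 0.08 and 0.10, and that of 1369146_a_at was 0.11 without HMB 5. For 1369146_a_at the log2 signals ran from 3.30 to 3.86 in HMB livers, against 3.22 to 3.48 in controls, and HMB 5 was the highest for both probe sets. Arnt differed by 0.16 ± 0.09 (SE, n = 5 per group, 95% interval -0.04 to 0.36, limma adjusted p = 0.29), with log2 signals from 3.60 to 3.86 in HMB livers, against 3.36 to 3.73 in controls. For Arnt the difference was 0.05 after cyclic loess and 0.11 without control 2.

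**Figure D2:**
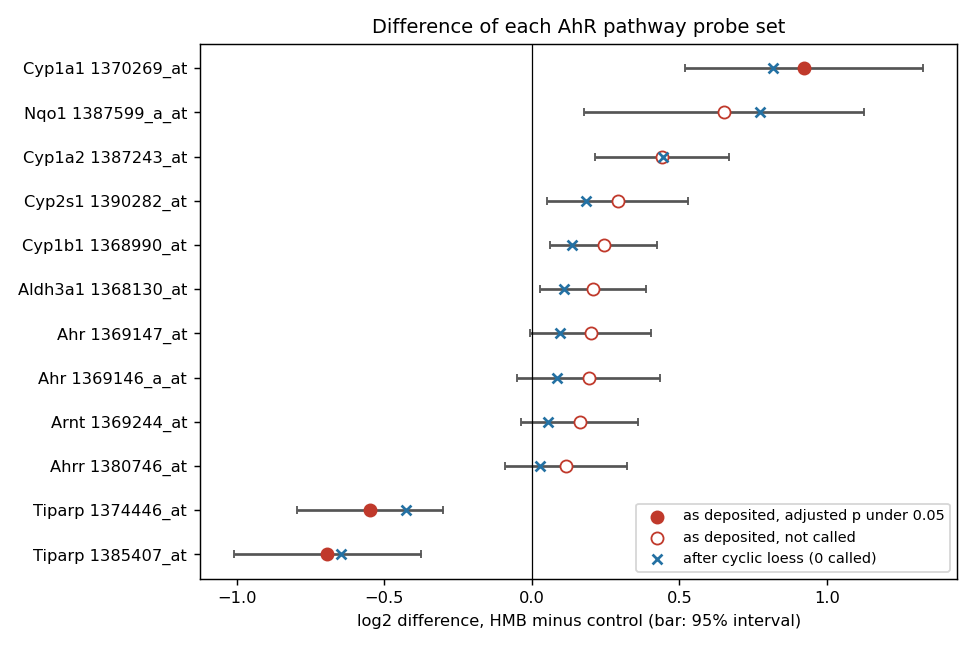
Log2 difference, HMB minus control, of each probe set (circles, with 95% intervals; filled where the adjusted p was under 0.05) and the same after cyclic loess (crosses). Cyp1a1 lies at 0.92 and the Tiparp probe sets at -0.55 and -0.69, while Ahr, Arnt and Ahrr have intervals that include 0.

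Differences moved with signal level over the whole array. Of the AhR genes, 10 of 12 probe sets had a difference above 0, with a median of 0.20, where 52.4% of all probe sets were above 0 with a median of 0.01. The 8 in the lower 50% of probe sets by mean signal, those of Ahr, Arnt, Ahrr, Cyp1a1, Cyp1b1, Aldh3a1 and Cyp2s1, were all above 0. When all probe sets were divided into 10 equal groups by mean signal, the groups holding these 8 had median differences of 0.10 to 0.12. Those holding Nqo1, Cyp1a2 and the 2 Tiparp probe sets had medians of -0.14, -0.06, -0.12 and -0.12. Cyp1a1, at 0.92, thus stood 0.82 above its group's median, whereas Arnt, at 0.16, and Ahrr, at 0.12, stood close to theirs. After cyclic loess the median over the 12 was 0.10 and the groups' medians ran from -0.04 to 0.02. The difference of Nqo1 was then larger, at 0.77 (limma adjusted p = 0.116), and that of Cyp1a2 was nearly the same.

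**Figure D3:**
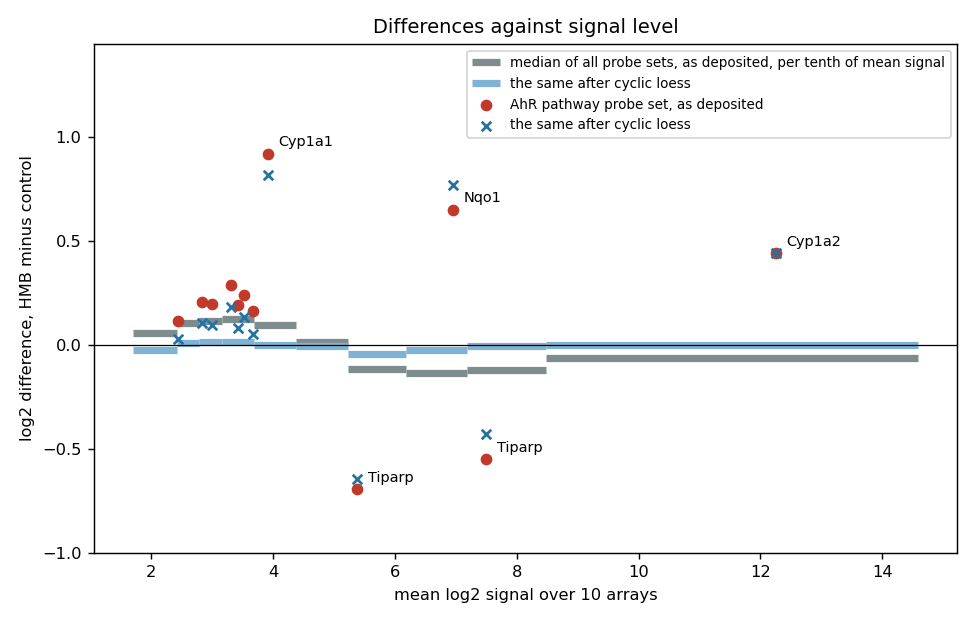
Log2 difference, HMB minus control, against mean log2 signal over 10 arrays. Dots are the 12 probe sets as deposited, crosses the same after cyclic loess, and horizontal bars the medians of all probe sets in each of 10 equal groups by mean signal; Cyp1a1, Nqo1, Cyp1a2 and both Tiparp probe sets lie from 0.43 to 0.82 away from their bars, and the other 7 from 0.01 to 0.17 above theirs.

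Of 5 measures of the arrays, 1 differed between the groups after adjustment. Signals were less spread over an array in HMB, where their SD averaged 2.40 ± 0.0261, than in controls, where it averaged 2.47 ± 0.0236 (SD, n = 5 each). The exact two-sided permutation test gave p = 0.00794, which no split of the 252 can undercut, and 0.0397 adjusted over 5 measures. The 3' minus 5' signal of GAPDH, a measure of RNA integrity and labelling, was 1.31 and 1.38 in HMB 1 and 2 and from 1.90 to 2.09 in HMB 3, 4 and 5, against 1.38 to 1.77 in controls. It did not separate the groups (exact two-sided permutation p = 0.516), nor did the same measure of beta-actin (exact p = 0.897). The poly-A spike-in signal relative to the hybridisation controls averaged -1.73 ± 0.225 in HMB and -2.04 ± 0.106 in controls (SD, n = 5 each; exact permutation p = 0.0238, adjusted 0.0595). With it as a covariate no AhR probe set was called, and 0 of all 31042 probe sets were. Cyp1a1 differed by 1.12 in that fit (limma adjusted p = 0.234) and Tiparp by -0.54 and -0.46 (adjusted p = 0.274 and 0.353). Among the AhR genes, the 1385407_at probe set of Tiparp differed by -0.84 with HMB 1 and 2 left out and by -0.47 with HMB 3, 4 and 5 left out. For the brighter Tiparp probe set these values were -0.54 and -0.56. Cyp1a1 differed by 0.78 with HMB 1 and 2 left out and by 1.13 with HMB 3, 4 and 5 left out, and Nqo1 by 0.52 and 0.85. Cyp1b1 ran the other way, at 0.31 and 0.14. The part of RNA quality in these differences was not tested.

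Most fits that leave out 1 animal ended the calls. Cyp1a1 was called in 2 of the 10 fits that leave out 1 animal, those without control 1 and without HMB 1, with a difference from 0.79 to 1.04 over the 10 and a highest limma adjusted p of 0.091. Each Tiparp probe set was called in 3, those without control 1, HMB 1 or HMB 3, with differences from -0.62 to -0.49 for 1374446_at and from -0.75 to -0.56 for 1385407_at and highest adjusted p-values of 0.0958 and 0.0956. Without HMB 3, Cyp1a1 differed by 0.98 (adjusted p = 0.0514). Without control 1, 5 of the 12 probe sets were called, Cyp1a2 (adjusted p = 0.048) and Nqo1 among them. Over all 31042 probe sets that fit called 1653, against 528 with all arrays. None of the 3 called with all arrays passed without control 2, 3, 4 or 5 or without HMB 2, 4 or 5. Those fits called from 0 to 65 of all 31042 probe sets. With HMB 1 moved to the controls on the strength of its dose label, Cyp1a1 differed by 0.55 (adjusted p = 0.247), Tiparp by -0.48 and -0.67 (adjusted p = 0.0795 and 0.0537) and Nqo1 by 0.41 (adjusted p = 0.351). The sign of each of the 12 differences was the same in every setting tried.

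**Figure D4:**
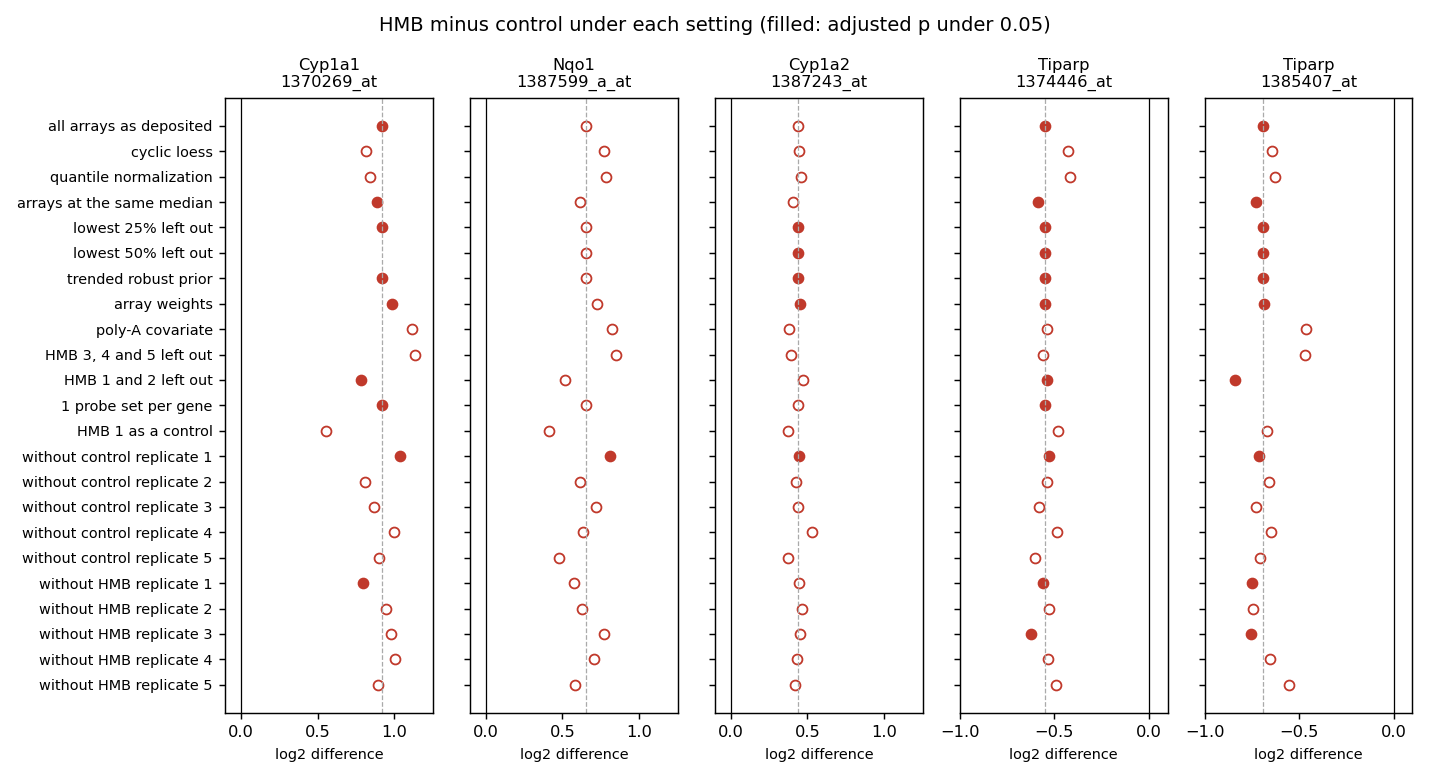
Log2 difference, HMB minus control (horizontal axes), of 5 probe sets under each setting (rows), filled where the adjusted p was under 0.05; dashed lines mark the values with all arrays as deposited. The differences keep their sign in every row, and the calls of Cyp1a1 and Tiparp are lost in most fits that leave out 1 animal.

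Other genes of the pathway were read from 6 lists with 37 genes, of which 32 had a probe set, 55 probe sets in all. None was called higher, where 0.705% of all probe sets were, and 3 were called lower, where 0.995% of all were. The median difference was -0.09, against 0.01 over all probe sets, which is not matched to the signal level of these lists. After cyclic loess it was -0.02. Hsp90ab1, the constitutive Hsp90 that holds AhR in the cytosol, was called lower in 1 of 2 probe sets. Its 1375335_at log2 signals were 10.55, 10.37, 10.13, 10.21 and 10.17 in HMB livers, against 10.90, 10.84, 10.74, 10.57 and 10.81 in controls. The groups did not overlap, the difference being -0.49 ± 0.10 (SE, n = 5 per group; by limma, adjusted p = 0.038), while the other probe set of Hsp90ab1 differed by -0.17 (adjusted p = 0.438). Ptges3, the co-chaperone p23, differed by -0.02.

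Among 17 probe sets of 7 coactivators and corepressors, 2 were called lower, where 0.995% of all probe sets were. A difference below 0 was seen in 14 and above 0 in 3, where 52.4% of all probe sets were above 0, a share not matched to their signal level. The median of the 17 was -0.14 as deposited and -0.06 after cyclic loess. For Crebbp, an acetyltransferase that many transcription factors recruit, 1385852_at had log2 signals of 5.14, 4.89, 3.61, 4.21 and 4.10 in HMB livers, against 5.52, 5.88, 5.56, 5.33 and 5.73 in controls. HMB 3, 4 and 5, the livers with the high GAPDH 3' minus 5' signal, were the lowest. The difference was -1.21 ± 0.24 (SE, n = 5 per group; by limma, adjusted p = 0.0353), but the other 4 Crebbp probe sets differed by -0.37 to -0.05 and were not called. Smarca4, the ATPase of a chromatin remodelling complex, had 3 probe sets with differences below 0, of which 1 was called, at -0.46 ± 0.10 (SE, n = 5 per group; by limma, adjusted p = 0.0451). After cyclic loess none of the 3 calls remained, with differences of -0.44 for Hsp90ab1 and -1.21 for Crebbp (limma adjusted p = 0.0538 for each) and -0.34 for Smarca4 (adjusted p = 0.105). Without control 1 the number called in these lists was 10, without HMB 1 it was 7, without HMB 3 it was 1, and it was 0 without any other single animal. Over all 31042 probe sets the numbers were 1653, 997 and 243 in these fits, and from 0 to 65 in the others.

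No probe set was called in the other 4 lists, which had from 4 to 12 probe sets each, where 1.70% of all probe sets were called. Of 11 probe sets of related bHLH-PAS factors, Clock had a difference of -0.29 for 1389456_at, and of -0.20, -0.20 and 0.17 for its others. Epas1 had 0.30 for its dimmer probe set, 1369703_at, and -0.11 for its brighter one, 1398333_at. Arnt2 had 0.33 for 1370611_at and 0.08 for 1373315_at. Further genes that dioxin induces or lowers in rodent liver had 12 probe sets and a median of -0.09, which was -0.05 after cyclic loess. That median pools genes of both directions, so it cannot show a dioxin-like pattern or its absence. The list included Pon1 with 0.38 for its dimmer probe set and -0.000854 for its brighter one. Nfe2l2, which encodes NRF2, had -0.40 ± 0.14, and Socs2, an inhibitor of growth hormone signalling, had -0.89 ± 0.34 (SE, n = 5 per group). For Socs2 the groups overlapped, with log2 signals of 4.16 to 6.37 in HMB livers, against 5.75 to 6.43 in controls (by limma, adjusted p = 0.145). The electron donors to P450 enzymes, Por, Cyb5a and Cyb5r3, lay between -0.11 and 0.12. The list of tryptophan and kynurenine enzymes, some of which make endogenous AhR ligands, had 8 probe sets. Of these, 7 were above 0, where 52.4% of all probe sets were. The median of the 8 was 0.09. Afmid, the formamidase of that route, had log2 signals of 9.48 to 9.84 in HMB livers, against 8.99 to 9.38 in controls, for 1396300_at, and differed by 0.43 ± 0.10 (SE, n = 5 per group; by limma, adjusted p = 0.0505). Its probe set 1396301_x_at differed by 0.39 and 1394479_at by 0.08, while Tdo2 differed by 0.14.

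**Figure D5:**
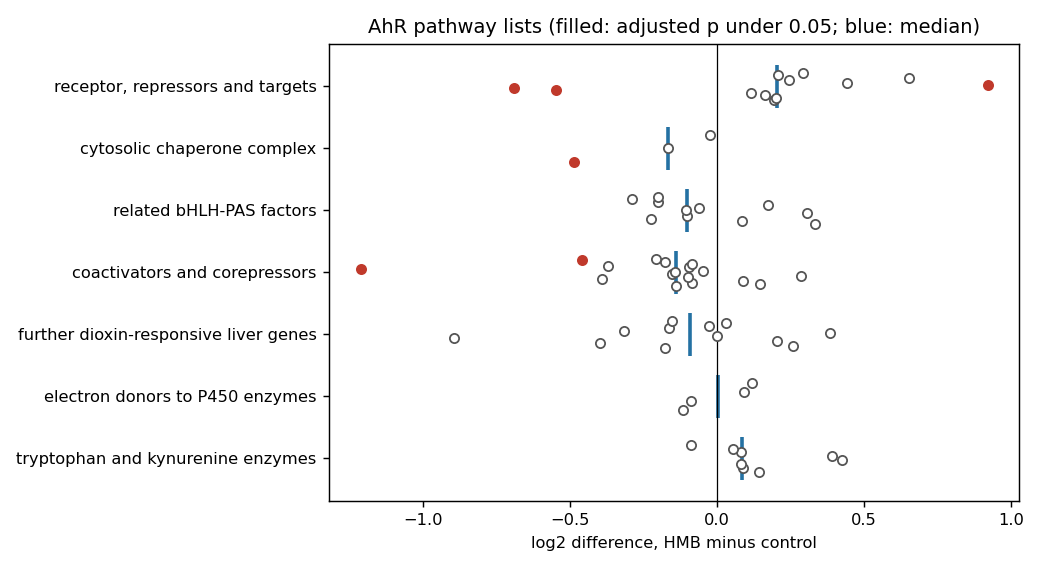
Log2 difference, HMB minus control, of the 12 probe sets of the receptor, repressors and targets and of the 55 probe sets of 6 further lists (rows; filled where the adjusted p was under 0.05, blue lines are medians). The 3 further calls are all below 0, at -0.49 for Hsp90ab1, -1.21 for Crebbp and -0.46 for Smarca4.

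Hepatocyte markers were bright in both groups, with Alb averaging 14.57 in HMB and 14.61 in control livers for 1367555_at. Of 12 hepatocyte probe sets 1 was called, where 1.70% of all probe sets were. It was a dim probe set of Fgb, a fibrinogen chain, at 0.68 (limma adjusted p = 0.0335). The bright probe set of Fgb differed by -0.06 and its other dim one by 0.12. The pericentral list, the zone in which Cyp1a2 is expressed, had 0 of 13 probe sets called and a median difference of 0.08. In this list 10 probe sets lay above 0 and 3 below, where 52.4% of all probe sets were above 0. Its mean level per liver ran from 6.20 to 6.34 in HMB, against 6.06 to 6.33 in controls. No probe set was called for the periportal list or for cholangiocytes, stellate cells, endothelial cells, macrophages, lymphocytes, erythroid cells or adipocyte and pancreas markers. These lists had from 5 to 10 probe sets each, where 1.70% of all probe sets were called, so few calls or none would be usual. Erythroid markers lay above 0 in 5 of 5 probe sets, with a median of 0.30. Their mean level ran from 4.97 to 5.38 in HMB livers, against 4.71 to 5.13 in controls, and their part in the results was not tested.

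Over the 10 livers, the named genes with profiles nearest to the brighter Tiparp probe set were Brd2, Elf2 and Rtp3. Nearness was the root mean square difference of profiles that were each centred and divided by their SD, and it was 0.242, 0.249 and 0.275. Their differences were -0.59, -0.37 and -0.57, a direction that the choice by likeness to a probe set called lower fixes. Nearest to Cyp1a1 were Tdrp at 0.262, Tbxa2r at 0.324 and Nlgn2 at 0.327, with differences of 0.30, 0.43 and 0.41, whose direction is fixed in the same way.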

How the data were processed

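Liver RNA of 10 rats was hybridised to 1 array each. The log2 signals were computed by the authors with RMA, per the submitters' processing notes (version not given in the sources used here). RMA adjusts background, equalises arrays and summarises each probe set. The deposited log2 values were used unchanged. No detection calls or raw files were used here. Of 31099 probe sets, 57 Affymetrix controls were set aside for array measures and 31042 were tested. Groups came from the titles. Replicate numbers follow deposition order. The animals were treated as independent, and their number limits the precision.

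Gene names are those of the platform annotation, with symbols updated through the RefSeq table of GRCr8. Probe sets with several genes (436) or none (9780) stayed unnamed. None of the 436 listed a gene of the AhR set. Tests used limma 3.58.1 in R 4.3.3 (lmFit, eBayes with the default prior, 8 residual and 4.93 prior degrees of freedom), with Benjamini-Hochberg adjustment over all 31042 and a threshold of 0.05. No filter on low signals was applied.

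The 10 genes and all lists were chosen with earlier results of these data known. All 10 genes were named with every probe set. Of each further list the called probe sets and up to 3 with the smallest p were named, and values of other probe sets of those genes and of the markers Alb and Fgb were added after they were seen. For each called gene the 3 nearest profiles were named. The settings were cyclic loess, quantile normalization, arrays at the same median, filters on the lowest 25% and 50% of mean signals, a trended robust prior, array weights, the poly-A signal as a covariate, HMB 3, 4 and 5 or HMB 1 and 2 left out, 1 probe set per gene, HMB 1 as a control, and each animal left out. Figures used matplotlib 3.10.9.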

Additional observations from a re-analysis of the deposited data

Results flagged for a closer look

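Control 3 stood apart from the other controls in Cyp1b1, at a log2 signal of 3.60 where the other 4 lay between 3.34 and 3.39. It was flagged because the gap to its nearest neighbour took up 0.82 of the range of the group. Among 34 groups of 5 values tested in this way, chance flags about 1 in 20.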

How the results depend on the processing

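The signs of the 12 differences were the same under all 22 other settings. Of 252 values for single probe sets, 209 kept both sign and side of the threshold, 37 lost the call and 6 gained it. Only the 3 called probe sets could lose a call. Cyp1a1 stayed called in 8 of its 21 other settings, Tiparp 1374446_at in 10 of 22 and Tiparp 1385407_at in 9 of 21. The number of AhR probe sets changed by HMB, 3 with all arrays as deposited, was 0 after cyclic loess, after quantile normalization, with the poly-A covariate, with HMB 3, 4 and 5 left out and with HMB 1 as a control. Leaving out 1 animal gave from 0 to 5. Over all 31042 probe sets the number called by limma was 528, 125 after cyclic loess, 106 after quantile normalization and 0 with the poly-A covariate, where 3806 had an unadjusted p under 0.05. It was also 0 in the fit lacking HMB 3, 4 and 5, where 3276 had an unadjusted p under 0.05. With HMB 1 as a control it was 532, close to the 528, while 0 AhR probe sets passed. Leaving out 1 animal gave from 0 to 1653, with 5928 or more at an unadjusted p under 0.05 in each fit. The cause of these changes was not tested. The number of probe sets called in the further pathway lists, 3, was 0 after cyclic loess or quantile normalization, 5 with the lowest 25% of signals left out, and from 0 to 10 with 1 animal left out. No paired analysis was possible because replicate numbers follow deposition order and pair no animals. Ahrr and Aldh3a1 fell under the 25% filter, and 4 of the 12 probe sets remained above the 50% filter.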
